A study of Rattus norvegicus with 4 samples.

Results

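Levels of 8 genes listed together under MAP kinase feedback were followed in perfused rat kidneys. These are the phosphatase genes Dusp1, Dusp5 and Dusp6, the Sprouty genes Spry2 and Spry4, and the immediate early response genes Ier2, Ier3 and Ier5. They were chosen by name, and all 8 were among the 9393 genes analysed, each above the detection floor on all 4 arrays. The 8 genes and the gene lists below were chosen with earlier results of these data known. Counts and shares therefore describe these genes and do not test them. The kidneys came from male Wistar rats of 300 to 480 g in a model of organ donation after cardiac death. In all 4 groups the kidneys stayed in the body for 29 min after death by exsanguination and, once flushed, were perfused by machine for 3 h with University of Wisconsin (UW) solution, a cold preservation fluid. The heparin group had low molecular weight heparin at 10 IU/ml in the cold fluid and in a following 30 min of warm perfusion with an oxygenated salt buffer, modified Krebs-Henseleit. The PPS group (the labels give no full name) had PPS at 10 IU/ml in both fluids, the warm group had both perfusions without a supplement, and the cold group had the cold perfusion only. Each group is 1 Affymetrix array with RNA of 3 kidneys pooled in equal amounts, which the study chose for RNA quality.

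MAP kinases (ERK, JNK and p38) are switched on by phosphorylation when growth factors, cytokines or stress reach a cell, and they drive transcription of immediate early genes. Among those early transcripts are brakes on the same pathway. Dual specificity phosphatases (DUSPs) remove the activating phosphates from MAP kinases, and Sprouty proteins hold back the step between receptor tyrosine kinases and ERK. IER proteins are small and short-lived products of the same early response, and the name of the list does not make them brakes. In the kidney, these kinases are known to be activated in tubule cells after ischaemia and reperfusion.

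Values are log2 expression values as the authors deposited them, so a difference of 1 is 2-fold. A gene is called higher or lower here at a log2 difference of at least 1. Since each group is 1 array, the spread between replicates is unknown, and no difference between a pair of arrays has a test. Signals of different probe sets depend on their probes, so levels are compared only between arrays, not between genes.

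The arrays were alike in distribution, with median log2 values from 4.50 to 4.54 and from 9253 to 9303 of the 9393 genes above the floor of 4.51. The tissue carried its own markers: 10 of 11 kidney markers were above the floor on all 4 arrays and 1, Kl, was below it on all 4. Their summed linear signal was 155751 on the heparin, 161782 on the PPS, 164580 on the warm and 159236 on the cold array. Leukocyte markers summed to 23119, 28704, 31113 and 28794 in the same order, with Cd68, Itgam, S100a8 and S100a9 below the floor throughout. Of 8 smooth muscle, pericyte and fibroblast markers above the floor, 6 were lower on the warm than on the cold array, with a median log2 difference of -1.21. All 24 poly-A spike-in controls were higher on the warm than on the cold array, by a median of 1.25, and the 3' over 5' difference of beta-actin was 3.39, 3.19 and 3.22 on the heparin, PPS and warm arrays, against 2.79 on the cold array. The part of these differences in the results below was not tested. When the arrays are scaled to these controls (poly-A scaling below), the warm minus cold median over all genes becomes -1.19. Each difference from the cold array falls by about this amount, and positive ones below it change sign, which is given beside the values of the 8 genes.

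After warm perfusion, 5 of the 8 genes were at least 2-fold higher than in cold-perfused kidneys and none was 2-fold lower. Over all 9393 genes, 2.48% were 2-fold or more higher and 1.16% lower. This share is a background for description only, since the 8 genes were chosen with earlier results of these data known. After poly-A scaling, 3 of the 8 (Dusp1, Ier2 and Ier3) were higher, beside 0.703% of all genes, and 1 (Spry4) was lower, beside 73.8%. As deposited, Dusp1, Ier2 and Ier3 had the largest differences, Dusp5 and Ier5 passed the size limit by less, and Dusp6, Spry2 and Spry4 stayed within it. The median log2 difference of the 8 genes was 1.69, beside -0.0032 over all genes, and 0.51 after poly-A scaling. Fewer cells of a type and less RNA per cell cannot be told apart in such whole-kidney RNA.

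**Figure D1:**
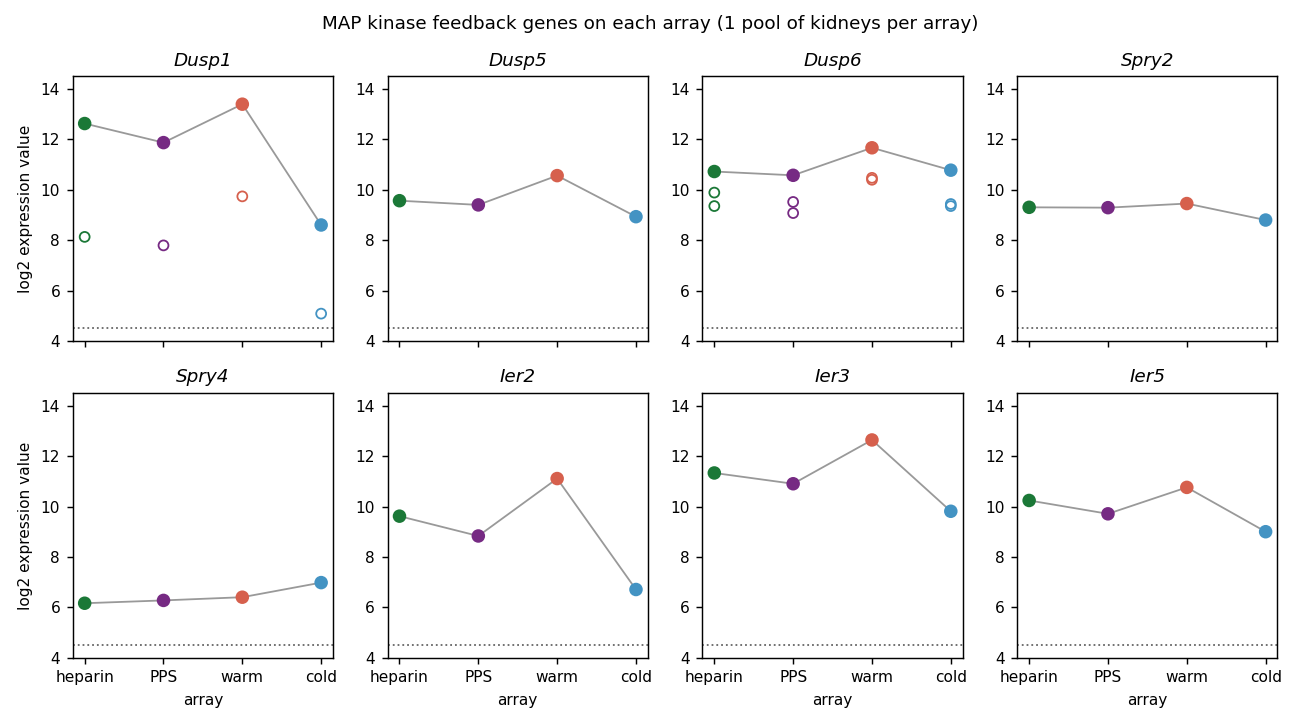
Log2 expression value (y axis) of each of the 8 genes on the heparin, PPS, warm and cold arrays (x axis). Filled points are the probe set used, open points other probe sets of the gene above the floor, and the dotted line is the floor of 4.51; there is 1 array per group and no error bar. The warm array is the highest of the 4 in every panel but that of Spry4, where the cold array is; with poly-A scaling the cold array is also the highest for Dusp6 and Spry2.

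Dusp1 encodes a nuclear phosphatase of p38, JNK and ERK. Its log2 value was 12.63 on the heparin, 11.88 on the PPS, 13.40 on the warm and 8.61 on the cold array. The warm array was highest and all 3 warm-perfused arrays lay far above the cold one. Warm minus cold was 4.79, a 27.7-fold difference that ranked 13th of 9393 genes from the highest. A further Dusp1 probe set read 8.13 on the heparin, 7.80 on the PPS, 9.74 on the warm and 5.09 on the cold array, and its warm minus cold difference was 4.65.

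Ier2 encodes a small nuclear protein of the immediate early response. It read 9.62 on the heparin, 8.83 on the PPS, 11.11 on the warm and 6.71 on the cold array, in the same order as Dusp1. Warm minus cold was 4.40, or 21.2-fold, the 19th highest of all genes. Ier3, also known as IEX-1, is an ERK substrate described in human cells that takes part in survival under stress. Its values were 11.33 on the heparin, 10.91 on the PPS, 12.64 on the warm and 9.81 on the cold array. Its difference of 2.83 in warm minus cold, or 7.11-fold, ranked 44th.

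Ier5 encodes a nuclear protein that acts with the heat shock factor HSF1. It read 10.24 on the heparin, 9.71 on the PPS, 10.76 on the warm and 9.002 on the cold array, with all 3 warm-perfused values above the cold one. Warm minus cold was 1.76, or 3.38-fold. After poly-A scaling it was 0.57, and heparin minus cold and PPS minus cold were then -0.03 and -0.37. The other 2 Ier5 probe sets were at the lowest value of the scale on all 4 arrays and say nothing about the gene. When all 3 probe sets were averaged, the difference shrank to 0.48.

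Dusp5 and Dusp6 encode phosphatases selective for ERK, a nuclear and a cytoplasmic one. Dusp5 read 9.57 on the heparin, 9.40 on the PPS, 10.57 on the warm and 8.94 on the cold array. Warm minus cold was 1.63, or 3.09-fold (0.44 after poly-A scaling). Dusp6 read 10.73 on the heparin, 10.58 on the PPS, 11.67 on the warm and 10.78 on the cold array, which put the warm array alone above the other 3. Its warm minus cold difference was 0.89, just inside the size limit, and -0.30 after poly-A scaling. The other 2 Dusp6 probe sets gave 0.96 and 1.12 as deposited, so that 1 of 3 passed the limit.

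The Sprouty genes differed less. Spry2 read 9.31 on the heparin, 9.29 on the PPS, 9.46 on the warm and 8.80 on the cold array. All 3 warm-perfused values were close together and above the cold value, with a warm minus cold difference of 0.65 (-0.53 after poly-A scaling). Spry4 read 6.16 on the heparin, 6.28 on the PPS, 6.40 on the warm and 6.98 on the cold array. As deposited it was the only 1 of the 8 genes with its highest value on the cold array, and warm minus cold was -0.58, a 1.49-fold lower value within the size limit. After poly-A scaling this difference was -1.77, past the limit, beside -1.19 for the median of all genes.

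Promoter sequences are shown for the 2 genes with the largest warm minus cold differences, for Dusp5 as a member past the limit by less, and for Spry4 as the member with the opposite sign. They come from RefSeq on the rat assembly GRCr8, 250 bases before to 50 bases after an annotated start, 5' to 3' on the strand of the gene. For the genes shown this is the start of the gene. The windows of Dusp6 and 1 of those of Spry2 are placed further into the gene. The RefSeq table holds 8 promoters of 7 of the 8 genes, 2 of them for Spry2. Capitals mark matches on either strand of TGACG, of TGACGTCA, which contains it and is the full form of the cyclic AMP response element, of the CArG box, which serum response factor binds, and of TATAAA. The Dusp1 promoter lies at chr10:17184603-17184902 on the plus strand, that of Ier2 at chr19:40399123-40399422 on the plus strand, that of Dusp5 at chr1:262543524-262543823 on the plus strand and that of Spry4 at chr18:30702497-30702796 on the minus strand.
Dusp1: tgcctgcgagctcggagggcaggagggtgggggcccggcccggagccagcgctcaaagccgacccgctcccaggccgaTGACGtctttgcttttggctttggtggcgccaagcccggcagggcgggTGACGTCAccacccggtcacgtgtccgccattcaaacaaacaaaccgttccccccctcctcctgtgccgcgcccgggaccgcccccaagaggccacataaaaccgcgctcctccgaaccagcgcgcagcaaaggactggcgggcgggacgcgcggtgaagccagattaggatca
Ier2: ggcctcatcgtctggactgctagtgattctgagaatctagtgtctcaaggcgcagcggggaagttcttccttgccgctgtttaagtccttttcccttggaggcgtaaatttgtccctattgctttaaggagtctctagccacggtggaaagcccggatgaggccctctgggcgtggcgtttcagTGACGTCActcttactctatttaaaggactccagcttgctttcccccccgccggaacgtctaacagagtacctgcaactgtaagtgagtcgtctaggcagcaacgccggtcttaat
Dusp5: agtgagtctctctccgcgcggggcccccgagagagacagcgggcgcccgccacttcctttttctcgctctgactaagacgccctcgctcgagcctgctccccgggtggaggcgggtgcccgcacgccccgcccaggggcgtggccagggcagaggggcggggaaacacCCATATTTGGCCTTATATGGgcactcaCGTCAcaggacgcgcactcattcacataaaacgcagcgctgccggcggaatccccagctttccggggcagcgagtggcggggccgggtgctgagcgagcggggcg
Spry4: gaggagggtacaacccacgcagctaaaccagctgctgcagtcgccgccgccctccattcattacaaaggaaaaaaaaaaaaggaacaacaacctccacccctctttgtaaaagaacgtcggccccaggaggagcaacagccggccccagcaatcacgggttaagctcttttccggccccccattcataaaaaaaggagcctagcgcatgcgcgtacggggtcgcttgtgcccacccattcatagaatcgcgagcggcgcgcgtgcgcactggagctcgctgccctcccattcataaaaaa
TGACGTCA was found in the promoters of Dusp1, starting 124 bases before the gene start, and of Ier2, starting 66 bases before it. It is present in 1.83% of the 33469 rat promoters of this length. The shorter TGACG was found in 4 of the 7 genes (Dusp1, Dusp5, Ier2 and Spry2) and in 21.2% of all promoters. The Dusp5 promoter holds 2 adjoining CArG boxes, starting 82 and 72 bases before the gene start, and 1.64% of all promoters hold at least 1. TATAAA was found for Ier5, 45 bases before its start, and in 14.2% of all promoters. Also searched were TGANTCA, which none of the 8 promoters and 7.33% of all promoters hold, and GGAAG, which promoters of 4 of the 7 genes (Dusp5, Dusp6, Ier2 and Spry2) and 70.1% of all promoters hold. These last 2 motifs are not in capitals. The Spry4 window holds none of the 6 motifs. A match describes the letters and is not evidence that a factor binds there.

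In kidneys perfused with heparin, none of the 8 genes was 2-fold or more higher than in unsupplemented warm kidneys, beside 0.383% of all genes. Of the 8, 2 were lower by 2-fold or more, beside 1.48% of all 9393 genes. These 2 were Ier2, with a log2 difference of -1.49 (2.81-fold lower), and Ier3, with -1.31 (2.48-fold lower). The median of the 8 was -0.86, beside 0.00 over all genes. Dusp5 (-0.99) and Dusp6 (-0.94) lay just inside the limit, and after poly-A scaling they were at -1.08 and -1.03.

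Dusp1 differed by -0.77 in heparin minus warm by the probe set used and by -1.61 by its other probe set, so the size of this difference depends on the probe set. Ier5 differed by -0.52, and the 3 Dusp6 probe sets gave -0.94, -0.51 and -1.12. Spry2 (-0.15) and Spry4 (-0.24) were almost level between the 2 arrays.

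Kidneys perfused with PPS were set against the same warm array. Warm minus cold shares this array with both supplement comparisons, so a gene picked as high in warm minus cold is favoured to be lower in them. Of the 8 genes, 6 were lower by 2-fold or more on the PPS array, beside 1.71% of all genes, and none was higher by that size, beside 0.511% of all genes. Ier2 had the largest difference at -2.28 (4.85-fold lower), the 21st lowest of all genes, followed by Ier3 at -1.74 (3.34-fold lower) and Dusp1 at -1.52 (2.88-fold lower). Dusp5 (-1.16), Dusp6 (-1.09) and Ier5 (-1.05) were just past the limit, and after poly-A scaling Dusp6 and Ier5 were just inside it at -0.98 and -0.94. Spry2 (-0.16) and Spry4 (-0.13) stayed close to 0. Of the 8 smooth muscle, pericyte and fibroblast markers, 3 were 2-fold or more higher in the same comparison, the collagen genes Col1a1 (1.70), Col1a2 (1.47) and Col3a1 (1.24), and the median of these 8 markers was 0.74. In heparin minus warm that median was 0.46, with none past the limit, and the part of these markers in the results was not tested. The median of the 8 genes followed here was -1.13, beside 0.00 over all genes. The other probe set of Dusp1 gave -1.95, and those of Dusp6 gave -0.88 and -1.40. Each supplement was also present during the cold phase, and each array holds a separate pool of kidneys. Effects of the supplement in either phase and differences between the pooled kidneys therefore cannot be told apart.

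**Figure D2:**
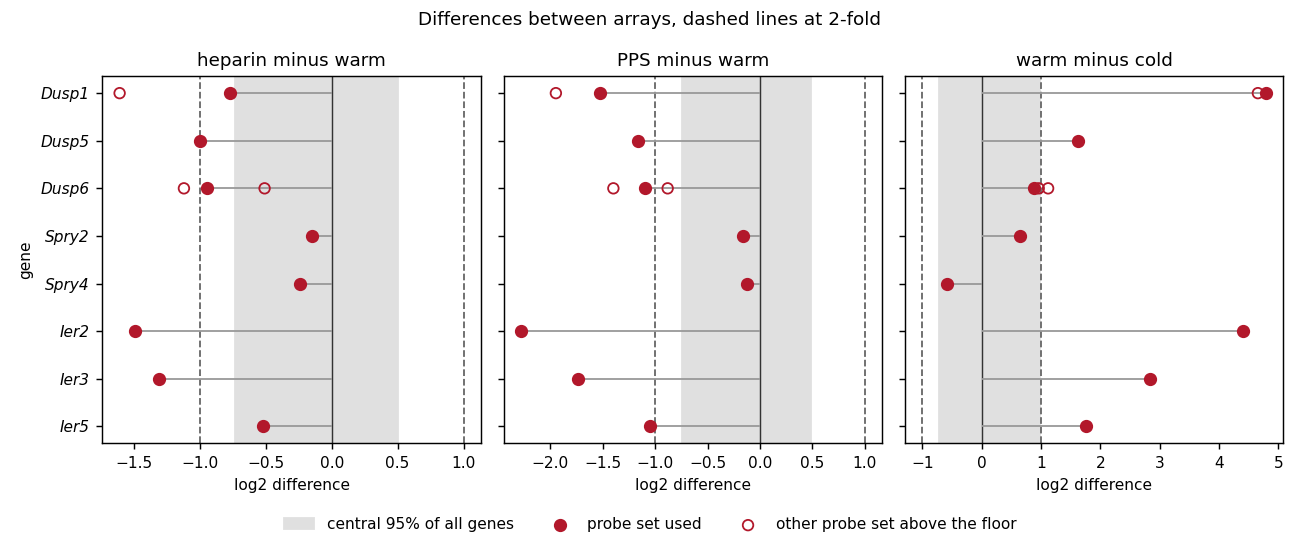
Log2 differences (x axis) of the 8 genes (y axis) in heparin minus warm, PPS minus warm and warm minus cold. Filled points are the probe set used, open points other probe sets above the floor, dashed lines mark 2-fold and the grey band holds the central 95% of all 9393 genes; the filled points of Dusp1, Dusp5, Dusp6, Ier2 and Ier3 lie left of the band in both supplement panels, that of Ier5 in the PPS panel, and those of the Sprouty genes inside it in all 3. The directions of Dusp6 and Spry2 in warm minus cold turn after poly-A scaling.

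Set against the cold array, the supplemented kidneys still had higher values of part of the genes. These comparisons share the cold array with warm minus cold. In heparin minus cold, 4 of the 8 genes were 2-fold or more higher, beside 1.17% of all genes: Dusp1 (4.03, 16.3-fold), Ier2 (2.91), Ier3 (1.52) and Ier5 (1.24). After poly-A scaling these were 2.75, 1.64, 0.25 and -0.03, so that the sign of Ier5 turned. In PPS minus cold, 3 of the 8 were 2-fold or more higher, beside 1.03% of all genes: Dusp1 (3.27, 9.64-fold), Ier2 (2.12) and Ier3 (1.09), or 2.19, 1.05 and 0.02 after that scaling. None of the 8 was 2-fold lower in heparin minus cold (0.916% of all genes) or in PPS minus cold (0.788%) as deposited. After poly-A scaling 2 of the 8, Dusp6 and Spry4, were 2-fold or more lower in each of these comparisons, beside 82% (heparin) and 65.2% (PPS) of all genes.

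The ERK phosphatases stayed inside the size limit against the cold array with either supplement, as deposited. Dusp5 differed from the cold array by 0.63 with heparin and by 0.47 with PPS, both of which turn negative (-0.64 and -0.61) after poly-A scaling. Dusp6 differed by -0.05 with heparin and by -0.20 with PPS, or by -1.33 and -1.28 after that scaling. The other Dusp6 probe sets gave 0.45 and 0.00 with heparin and 0.08 and -0.28 with PPS, as deposited. Spry2 was at 0.51 and 0.49, which turn to -0.77 and -0.59, and Spry4 was at -0.82 and -0.71, or at -2.09 and -1.78 after that scaling.

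Between the supplements, none of the 8 genes differed by 2-fold, beside 0.49% of all genes higher or lower by that size. The largest differences in heparin minus PPS were those of Ier2 (0.79, 1.73-fold) and Dusp1 (0.76, 1.69-fold), followed by Ier5 (0.53) and Ier3 (0.43). The central 95% of all genes ran from -0.45 to 0.46. The other Dusp1 probe set gave 0.34, inside that range. Dusp5 (0.17), Dusp6 (0.15) and Spry2 (0.01) turned to -0.03, -0.05 and -0.18 after poly-A scaling, and Spry4 was at -0.11. There is no replicate with which to tell these differences from 0.

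As deposited, the order warm, heparin, PPS, cold from the highest to the lowest value held for 6 of the 8 genes, Dusp1, Dusp5, Spry2, Ier2, Ier3 and Ier5. It held for 7.55% of the 9166 genes above the floor on all arrays. For Spry2 the heparin and PPS values were 0.01 apart, so the order of these neighbours carries no information. Dusp6 ran warm, cold, heparin, PPS, with 0.05 between heparin and cold. This order depends on the probe set. Another Dusp6 probe set ran warm (10.40), heparin (9.89), PPS (9.52), cold (9.44), and in a further one heparin and cold were equal at 9.36. Spry4 ran cold, warm, PPS, heparin, with 0.11 between PPS and heparin. After poly-A scaling the first order held for 3 of the 8 genes, Dusp1, Ier2 and Ier3, and for 0.305% of the 9166 genes. Dusp5 then ran warm, cold, PPS, heparin and Ier5 ran warm, cold, heparin, PPS, while Dusp6, Spry2 and Spry4 ran cold, warm, PPS, heparin.

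A fit with limma set the 3 warm-perfused arrays together against the cold array, the 1 comparison with residual degrees of freedom. The 2 degrees of freedom hold the differences between the warm, heparin and PPS groups as well as chance, and the lone cold array is assumed to vary like the others. At an adjusted p under 0.05 limma called none of the 8 genes, and 0.0106% of all genes. The lowest adjusted p among the 8 was 0.217 by limma, for Spry2 and Spry4. Spry2 averaged 9.35 on the 3 warm-perfused arrays and 8.80 on the cold array, and Spry4 averaged 6.28 against 6.98. Dusp1 had the largest fitted difference of the 8, 4.03, with an adjusted p of 0.218 by limma. Unadjusted, 3 of the 8 genes (Dusp1, Spry2 and Spry4) had a limma p under 0.05, beside 16.2% of all genes. The fit was not run on poly-A scaled values. After that scaling Spry2 was lower than on the cold array, by -0.53 (warm), -0.77 (heparin) and -0.59 (PPS). Genes that also differ among the warm-perfused arrays, such as Ier2 (3.15, adjusted p = 0.321) and Ier3 (1.81, adjusted p = 0.416), have a large residual in this limma fit.

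Of 18 other DUSP genes listed, 16 were named on the array and 10 were above the floor. Dusp2 is a nuclear phosphatase of ERK and p38 best known from activated leukocytes. It was the only 1 of these 10 that was 2-fold higher in warm minus cold, beside 2.48% of all genes. It read 6.98 on the heparin, 6.79 on the PPS, 8.34 on the warm and 5.82 on the cold array. Warm minus cold was 2.52 (1.33 after poly-A scaling), and from the warm value it differed by -1.36 with heparin and by -1.56 with PPS. Dusp15 differed by -1.33 in warm minus cold. The median of the 10 was -0.11 in warm minus cold (-1.29 after poly-A scaling), and Dusp4, Dusp8, Dusp10, Dusp12, Dusp19 and Dusp26 were below the floor on all arrays.

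Of 8 measured genes for other Sprouty-type brakes, none was 2-fold lower in warm minus cold, beside 1.16% of all genes. Only Spry1 was 2-fold higher, beside 2.48% of all genes. It read 8.94 on the heparin, 8.70 on the PPS, 9.90 on the warm and 8.83 on the cold array, which is the pattern of Dusp6 with the warm array alone high. Warm minus cold was 1.07 (-0.12 after poly-A scaling), and the supplemented arrays differed from the warm one by -0.96 (heparin) and -1.20 (PPS). Errfi1, a feedback inhibitor of the EGF receptor, differed by -0.26 in warm minus cold and by -0.57 in PPS minus warm.

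Of 9 measured genes listed as other IER-type small early genes, 7 were 2-fold or more higher in warm minus cold, beside 2.48% of all genes. Their median was 1.70, or 0.86 after poly-A scaling. This list too was chosen with earlier results of these data known. Ppp1r15a (4.60), a phosphatase subunit that restarts translation, Ccn1 (4.12), a secreted matricellular protein, and Csrnp1 (4.11), a nuclear protein, were near Ier2 in size. Gem (2.05), a small GTPase, and Arc (1.70), a cytoskeleton-associated early gene, followed. After poly-A scaling Gem and Arc fell inside the size limit, at 0.86 and 0.51. The other 2 were Maff (1.55, with its cold, heparin and PPS values below the floor, so at least 2.93-fold) and Ccn2 (1.02, or -0.17 after poly-A scaling). With heparin 6 of the 9 were 2-fold or more lower than on the warm array (median -1.37), beside 1.48% of all genes. With PPS it was also 6 (median -1.57), beside 1.71%. Ccn1 stood apart, with 7.06 on the heparin array against 9.42 with PPS, a heparin minus PPS difference of -2.36.

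**Figure D3:**
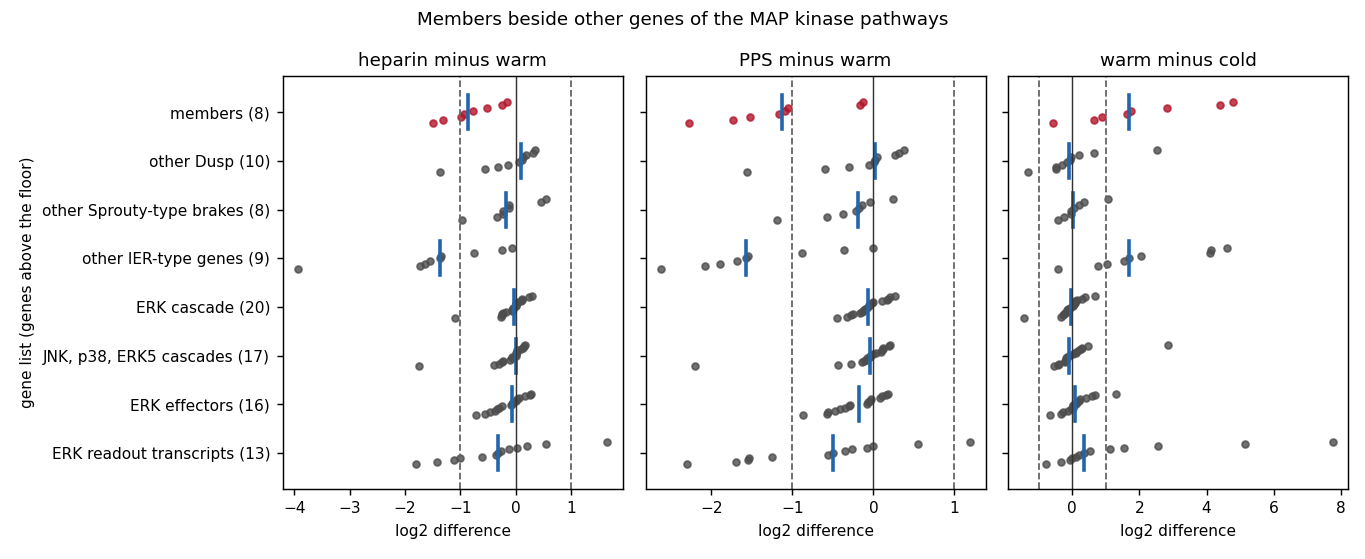
Log2 differences (x axis) of single genes (points) in heparin minus warm, PPS minus warm and warm minus cold, by gene list with the number of genes above the floor (y axis). Blue bars are list medians, dashed lines mark 2-fold and red points are the 8 genes described here; their median of 1.69 in warm minus cold and that of other IER-type genes, 1.70, lie right of the 2-fold line, while the medians of the kinase cascades lie near 0 as deposited (-1.17 for the ERK and -1.29 for the JNK, p38 and ERK5 cascade after poly-A scaling).

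Transcripts of the kinases themselves were nearly level as deposited. Of 20 measured genes of the ERK cascade, 1 differed by 2-fold in warm minus cold. Over all genes, 2.48% were higher and 1.16% lower by that size. The 1 gene was Egfr, the EGF receptor, with 6.40 on the warm and 7.85 on the cold array. Its difference was -1.44, or -2.63 after poly-A scaling. Egfr was lower still on the supplemented arrays, at 5.30 with heparin and 5.96 with PPS. The kinases Map2k1 and Map2k2, which phosphorylate ERK, differed by 0.09 and -0.14 in warm minus cold. The median of the 20 was -0.03 between warm and cold, and against the warm array -0.03 with heparin and -0.07 with PPS.

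Of 17 genes of the JNK, p38 and ERK5 cascades, only Map3k8 was past the limit in warm minus cold. Over all genes, 2.48% were higher and 1.16% lower by that size. Map3k8 is a kinase that activates ERK downstream of Toll-like and TNF receptors. It read 5.61 on the heparin, 5.15 on the PPS, 7.36 on the warm and 4.48 on the cold array, the last just below the floor. It was thus at least 7.17-fold higher in warm than in cold kidneys as deposited, a log2 difference of 2.84 (1.69 after poly-A scaling). It differed by -1.75 in heparin minus warm and by -2.20 in PPS minus warm. Mapk8 (JNK1) differed by 0.01 and Mapk14 (p38 alpha) by -0.15 in warm minus cold.

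Among 16 kinases and transcription factors on which ERK acts, 1 was 2-fold higher in warm minus cold, beside 2.48% of all genes. This was Srf, which encodes serum response factor, with 10.13 on the warm and 8.83 on the cold array. The Srf difference was 1.31, or 0.12 after poly-A scaling, and its heparin and PPS values were 9.43 and 9.26. The median of the 16 was 0.08 in warm minus cold (-1.11 after poly-A scaling).

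Of 13 measured transcripts used as readouts of ERK activity, 5 were 2-fold or more higher in warm minus cold, beside 2.48% of all genes. These were Fos (7.77) and Egr1 (5.15), early transcription factors, Hbegf (2.56), an EGF receptor ligand, Myc (1.54) and Phlda1 (1.11). After poly-A scaling Myc and Phlda1 fell inside the size limit, at 0.35 and -0.08. All 5 were lower on both supplemented arrays than on the warm array. Heparin minus warm ran from -1.79 (Hbegf) to -0.62 (Fos) and PPS minus warm from -2.30 (Hbegf) to -1.26 (Fos). These 5 genes were picked as high on the same warm array, which favours this direction, so it is not a test. Areg, another EGF receptor ligand, went the other way, with 6.88 (heparin) and 6.42 (PPS) against 5.22 on the warm array. Etv5, which is often read together with Dusp6 and Spry4 as an ERK target, differed by 0.33 in warm minus cold, and Etv4 was below the floor on all arrays.

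The genes whose profile over the 4 arrays was nearest to the median of the 8 were searched among 9158 other genes above the floor, after centring each gene on its mean. The measure was the Euclidean distance on the log2 scale. The 5 nearest were Rhob (distance 0.08), Arrdc2 (0.12), Krt18 (0.19), Ifit2 (0.20) and Cebpb (0.22). Rhob, a small GTPase, read 13.10 on the heparin, 12.68 on the PPS, 13.78 on the warm and 12.15 on the cold array. The nearest gene to each member was Egr1 for Dusp1 (0.26), Zfp36 for Ier2 (0.20), Gadd45g for Ier3 (0.16), Rhob for Ier5 (0.21), Ifit2 for Dusp5 (0.05), Dedd2 for Dusp6 (0.10), Sytl2 for Spry2 (0.03) and Slc30a2 for Spry4 (0.05). With 4 points per gene, small distances are common for profiles of small range such as those of Spry2 and Spry4.

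**Figure D4:**
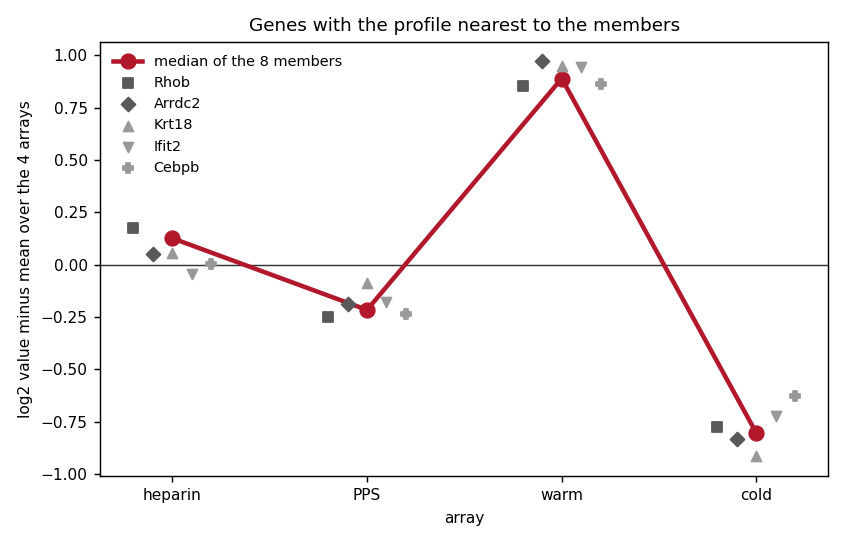
Log2 value minus the gene's mean over the 4 arrays (y axis) on the heparin, PPS, warm and cold arrays (x axis), for the median of the 8 genes (red line) and the 5 genes nearest to it (grey markers, shifted sideways). As deposited, the median profile is at 0.13 on the heparin, -0.22 on the PPS, 0.89 on the warm and -0.81 on the cold array, and the 5 genes follow it at distances of 0.08 to 0.22.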

How the data were processed

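Each group has 1 Affymetrix array, for which the authors deposited a log2 expression value per probe set. The submitters' processing notes name GCRMA, with no version given; it corrects background, normalizes and summarizes probe intensities. No header states the log2 scale, which was inferred from the range of 2.11 to 16.4. GCRMA sets weak probe sets to a common lowest value, held by 27.1% to 27.3% of probe sets per array, and makes the arrays alike in distribution, which hides changes in total messenger RNA. Of 31099 probe sets, 20832 have 1 gene symbol, 436 several and 9780 are unnamed here; 57 are controls. Symbols were updated through Entrez identifiers to RefSeq (GRCr8). Per gene the probe set with the highest mean was taken, and values below the 50th percentile of all values, 4.51, were raised to it as a floor. The 9393 genes with a value over it on any array entered the analysis. A log2 difference of at least 1 counted as higher or lower. Folds with 1 side at the floor are lower bounds.

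limma 3.58.1 (lmFit, eBayes, Benjamini-Hochberg adjustment, unfloored values) in R 4.3.3 compared the mean of the 3 warm-perfused arrays with the cold one. The count of genes past the size limit and the limma fit were each tested on simulated data. Members and lists were chosen with earlier results of these data known. Named genes are the 8 members, up to 5 genes per list and comparison past the size limit with the largest first, and nearest profiles; listed genes named beyond this (such as Maff, Ccn2, Errfi1, Etv5 and those of the kinase cascades inside the limit) were chosen after their values were seen. Alternatives were other floors, probe set rules, scalings and size limits. Python 3.11.15 was used for the rest.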

Additional observations from a re-analysis of the deposited data

How the results depend on the processing

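The number of the 8 genes at least 2-fold higher in warm minus cold was 5 as reported and 3 under either scaling to the poly-A controls or a 4-fold size limit. In heparin minus cold it was 4, and 2 under the same 3 settings. The shares of all genes under the 2 poly-A scalings were 0.735% and 0.703% in warm minus cold, and 0.352% under both in heparin minus cold. The number 2-fold lower in heparin minus warm was 2, and 4 with the lowest-mean probe set above the floor. Under either poly-A scaling it was also 4, beside 1.75% and 1.59% of all genes. It was 5 at a limit of 1.5-fold and 0 at 4-fold. In PPS minus warm it was 6, 5 with averaged probe sets and 1 at 4-fold. Scaled to the median level of the poly-A controls it was 5, beside 1.44% of all genes. By the poly-A scaling quoted in the results it was 4, beside 1.33%. The order warm, heparin, PPS, cold held for 6 of the 8 genes, and for 3 under either poly-A scaling. In heparin minus PPS the number of higher genes was 0, and 2 at 1.5-fold. Shares of all genes at 1.5-fold and 4-fold are not given here, so counts at these limits have no background beside them. One poly-A scaling used the median level of the controls; the other, chosen after seeing the data, used each control's deviation from its own mean and is the one quoted in the results. They turned the sign of 1 called difference, Ier5 in heparin minus cold, to -0.018 and -0.032. They lower every difference from the cold array because the controls were higher on the warm, heparin and PPS arrays, by medians of 1.25, 1.28 and 1.10. With a floor at the 75th percentile, Ier2 in PPS minus cold shrank to 0.15, since its cold value was raised to that floor. Over the other settings (no floor, other floors, averaged probe sets, median centring, quantile normalization) these counts stayed within 1.5 times. limma called 0 of the 8 genes in the full fit and without the warm, heparin or PPS array, each of which leaves 1 residual degree of freedom, with floored values, and with robust estimation and an intensity trend; at an unadjusted p under 0.05 it gave 3 in the full fit and from 2 to 6 otherwise. No paired analysis was possible because each group has 1 array. The number of arrays limits the precision.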
